A study of Mus musculus with 5 samples.

Results

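The nuclei described here were picked out of 5 mouse liver single-nucleus RNA libraries by a marker rule for cholangiocytes. These are the epithelial lining cells of the bile ducts. Meeting the rule does not make a nucleus a cholangiocyte. Of the nuclei taken, 81.5% in the chow libraries and 34.8% in the MASH libraries also carried RNA of several hepatocyte genes, as described below. A nucleus was taken when it had at least 300 genes, under 10% mitochondrial UMIs (unique molecular identifiers, counted once per captured RNA), 0 UMIs of the leukocyte gene Ptprc, the endothelial gene Ptprb and the fibroblast collagen Col3a1, and at least 1 UMI of 2 or more of 7 biliary genes. The 7 genes were Pkhd1 (fibrocystin, a cilium protein), Bicc1 (an RNA-binding protein of cystic disease), Dcdc2a (a doublecortin-domain ciliary protein), Ehf (an epithelial ETS factor), Sox9 (the biliary and progenitor transcription factor), Krt19 (a ductal keratin) and Epcam (an epithelial adhesion molecule). The rule took 1563 of the 48533 nuclei that passed the gene and mitochondrial limits, out of 57080 barcodes. Since the rule reads measured UMIs, the levels of these genes describe the selection and are no finding.

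Cholangiocytes modify bile by moving chloride, bicarbonate and water under the control of the hormone secretin, and a single primary cilium senses flow. SOX9, ONECUT factors and Notch signalling through JAG1 shape them in development. In chronic liver disease they can multiply as a ductular reaction and release chemokines and growth factors that act on leukocytes and stellate cells.

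The livers came from wild-type male C57BL6/J mice. The 3 chow libraries were from mice on regular food, and the 2 MASH libraries (metabolic dysfunction-associated steatohepatitis) from mice given a diet in which fat gave 40% and fructose 20% of the energy, with cholesterol at 2%. Feeding began at 10 to 12 weeks of age and lasted 5 months. Whether a library held 1 mouse or several is not stated, so p-values below measure the spread between libraries only.

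Library totals ran from 35612373 to 49137377 UMIs and median UMIs per kept nucleus from 2124 to 3910. MASH 1 stood apart in its median mitochondrial share, 7.42%, and 59.0% of its barcodes were kept, against 87.6 to 96.9% in the other 4 libraries. Pairs of libraries listed 23 to 48 of the same barcodes, and between 0 and 6 gated barcodes of one library were also listed in another.

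The gate held 50, 33 and 85 nuclei in chow 1, 2 and 3, and 280 and 1115 in MASH 1 and 2. As shares of kept nuclei these were 0.616%, 0.292% and 0.795% in chow, and 3.67% (exact binomial 95% interval 3.26 to 4.11%) and 10.3% (9.77 to 10.9%) in MASH. Such intervals, and the Poisson intervals used below, cover counting error only. No chow library reached the level of MASH 1, and MASH 2 lay well above MASH 1. The means were 7.0% ± 4.72 (SD, n = 2) and 0.568% ± 0.255 (SD, n = 3), a ratio of 12.3, or 6.46 without MASH 2. The 2-sided exact permutation test gave p = 0.1, the smallest value that 2 against 3 libraries allow. Kept nuclei with at least 1000 UMIs were also thinned to 1000 UMIs. This left out 7, 1 and 6 gated nuclei of chow 1 to 3 and 20 and 182 of MASH 1 and 2. Of the thinned nuclei the same rule took 0.0971%, 0.0367% and 0.109% in chow and 1.34% and 7.26% in MASH, in the same order.

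The label was checked against hepatocyte genes that the rule did not read. A gated nucleus was called hepatocyte-poor when it had UMIs of fewer than 3 of 8 hepatocyte genes such as Hnf4a and Cps1, and hepatocyte-rich otherwise. In chow only 10, 2 and 19 gated nuclei were hepatocyte-poor, 18.5% of the 168, whereas in MASH 116 and 793 were, 65.2% of the 1395. At the edge of this threshold, 203 gated nuclei had 2 of the 8 genes and 110 had 3. The hepatocyte-rich gated nuclei had median UMI counts of 3919 to 5898 by library and the hepatocyte-poor ones 893 to 1718. Of hepatocyte-rich nuclei 9.15 to 23.9% by library had doublet scores among the highest of their library, and of hepatocyte-poor nuclei 0 to 5.17%. By this split most gated nuclei of MASH 2 were hepatocyte-poor and most of chow and MASH 1 hepatocyte-rich. The split rests on detection of 8 genes in nuclei of unequal depth, and hepatocyte RNA was present on both sides of it.

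How the rule was met also differed. Among nuclei with exactly 2 of the 7 genes, the pair Pkhd1 and Sox9 made up 83.7%, 86.7% and 60.5% in chow 1 to 3, and 42.9% and 23.7% in MASH 1 and 2. Exactly 2 genes were found in 917 nuclei, and 3 or more in 646, of which 19 were from chow. Just outside the rule, 6170 nuclei had exactly 1 of the 7. Spp1 (osteopontin, a secreted phosphoprotein of bile duct cells), which the rule left out, was lower in hepatocyte-poor MASH nuclei with 1 gene than in those with 2 or more. It stood at 5144 and 6222 CPM (UMIs scaled to a sum of 1000000) in hepatocyte-poor MASH nuclei with 3 or more of the genes, at 4588 and 5380 CPM in those with 2, and at 1005 and 2180 CPM in those with 1.

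The hepatocyte-poor nuclei made up 0.123%, 0.0177% and 0.178% of kept nuclei in chow, and 1.52% (1.26 to 1.82%) and 7.35% (6.87 to 7.86%) in MASH. The groups did not overlap, and the ratio of means was 41.8 (exact permutation p = 0.1). This ratio was 14.3 without MASH 2, 69.2 without MASH 1 and 62.9 without chow 3. The hepatocyte-rich gated nuclei made up 0.493%, 0.274% and 0.617% in chow and 2.15% and 2.99% in MASH, a ratio of 5.56 (exact permutation p = 0.1). Adjusted over the 3 shares, each p stayed at 0.1. A share of nuclei cannot tell more cholangiocytes from a different yield of their nuclei.

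**Figure D1:**
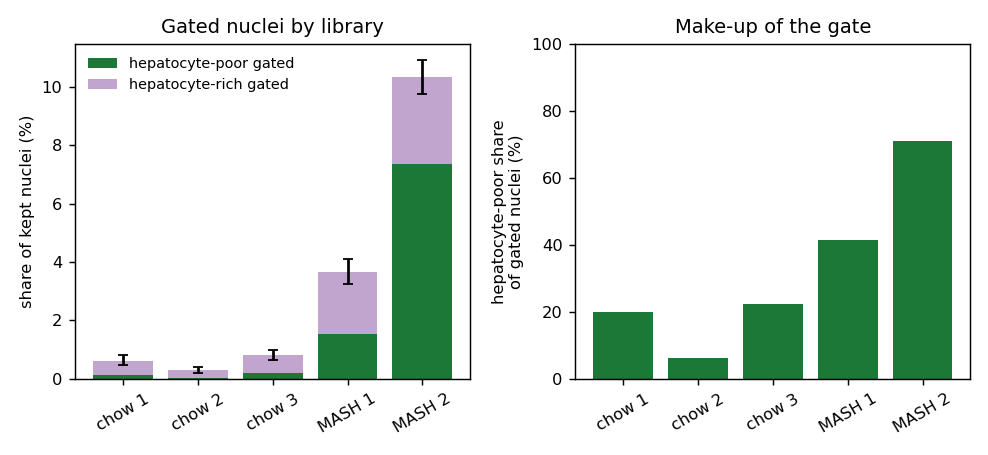
Left, gated nuclei as a share of kept nuclei (%) in each library, stacked as hepatocyte-poor (green) and hepatocyte-rich (purple), with exact binomial 95% intervals of the total. Right, the hepatocyte-poor share of gated nuclei (%). MASH 2 reached 10.3% and MASH 1 3.67%, above the chow libraries, and hepatocyte-poor nuclei were the larger part only in MASH 2.

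Gated nuclei were next set beside the other kept nuclei of their own library. Ranked by mean log2 fold over both MASH libraries (5 CPM added), the first 20 held 6 genes that the rule reads and 14 that it does not. The 14 were led by Gm609, a predicted gene, with log2 folds of 3.25 and 3.38 in MASH 1 and 2. Spp1 followed with 2.93 and 2.60, Rassf9 (a Ras-association protein) with 2.40 and 2.95, Nipal2 with 2.40 and 2.95, and Scara3 (a scavenger receptor family member) with 2.45 and 2.78. Further down came Kif12 (a kinesin of renal and biliary epithelium), Pak6 (a kinase), Prom1 (the progenitor surface protein CD133), Syt7 (a synaptotagmin), Sox4 (a progenitor transcription factor) and Cldn7 (a tight junction claudin). Because a pair of rule genes sufficed to enter, these folds are a description with no test.

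In hepatocyte-poor MASH nuclei several of these genes were close to absent from hepatocytes. Hepatocyte-rule nuclei, meaning nuclei with 3 or more of the 8 hepatocyte genes and none of the gate genes, served as the comparison and numbered 2629 in MASH 1 and 2426 in MASH 2. Gm609 (chr16:45411768-45492969, minus strand, GENCODE M21 on GRCm38) stood at 211 and 405 CPM in MASH 1 and 2, against 0.80 and 0.95 CPM in hepatocyte-rule nuclei. Spp1 stood at 4867 and 5881 CPM against 110 and 173 CPM. Sox4 stood at 484 and 334 CPM against 12.5 and 11.7 CPM. These genes were far above their hepatocyte-rule levels in both libraries.

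Since the nuclei differ in depth (medians 1438 and 1340 UMIs for hepatocyte-poor, 3967 and 3841 for hepatocyte-rule in MASH 1 and 2), shares of nuclei with a UMI were also taken after thinning each to 1000 UMIs, which kept 97 and 615 hepatocyte-poor nuclei. Spp1 was then seen in 90.7% (83.1 to 95.7%) and 91.5% (89.1 to 93.6%), against 11.1% and 16.8% of hepatocyte-rule nuclei, the background at this depth. Gm609 was seen in 20.6% and 31.4% against 0.116% and 0.211%, and Agrn in 40.2% and 39.8% against 6.29% and 5.64%. Before thinning Spp1 was seen in 91.4% and 96.5%. Spp1 thus marked most hepatocyte-poor MASH nuclei although the rule did not ask for it.

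Of 28 ductal identity genes fixed as a list, all 28 were higher in hepatocyte-poor than in hepatocyte-rule nuclei in both MASH libraries, and 25 at least 2-fold. Over all 16245 genes seen, 35.6% were higher in both and 14.2% at least 2-fold in both, which is the background for the counts that follow. Up to 4 genes with the highest levels were named for each list by rule, and other list members named below were chosen after their values were seen. Sorbs2 (an actin adaptor) stood at 3669 and 4670 CPM against 1137 and 1342 CPM, Onecut1 (a biliary homeobox factor) at 334 and 529 against 35.8 and 36.5, and Cd24a (a small surface glycoprotein of epithelial progenitors) at 98.7 and 146 against 0.89 and 2.84. The simple keratins Krt8 and Krt18 were shared, Krt8 at 296 and 150 CPM against 160 and 111 CPM.

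**Figure D2:**
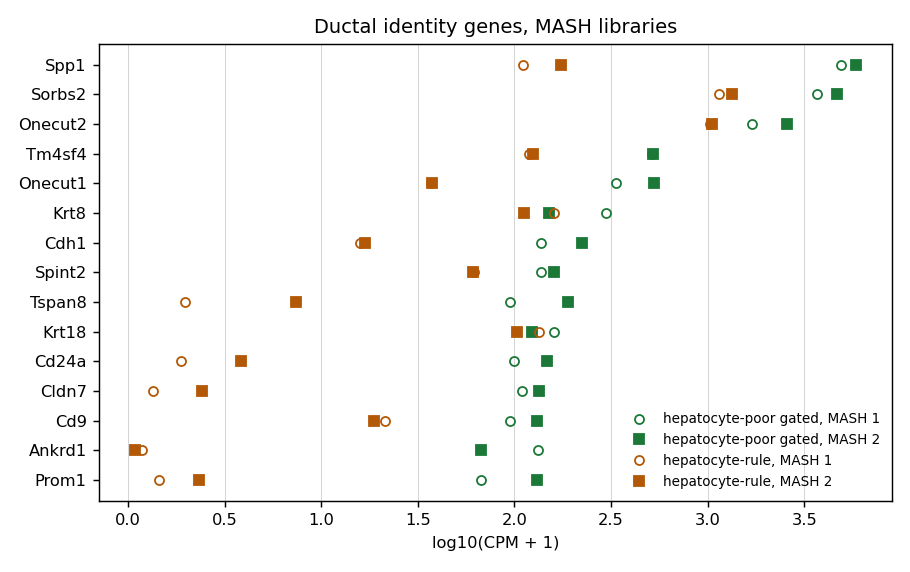
Levels of ductal identity genes as log10(CPM + 1) in hepatocyte-poor gated nuclei and hepatocyte-rule nuclei, open circles for MASH 1 and filled squares for MASH 2. Spp1, at 4867 and 5881 CPM, lies far to the right of its hepatocyte-rule level of 110 and 173 CPM, whereas Krt8 and Krt18 lie close together.

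The secretory machinery was present at low levels. Of 22 transport genes, 13 were higher in hepatocyte-poor nuclei in both libraries and 9 at least 2-fold. Cftr (the chloride channel opened by secretin signalling) stood at 47.0 and 67.3 CPM and was listed at 0 and 0.47 in hepatocyte-rule nuclei. Sctr (the secretin receptor) stood at 42.3 and 59.6 CPM against 0 and 0.28. Slc4a2 (the chloride and bicarbonate exchanger) differed little, 141 and 136 CPM against 99.5 and 120. Of 22 cilium genes, 17 were higher in both and 10 at least 2-fold, among them Pkd2 (polycystin 2, a ciliary calcium channel) at 240 and 338 CPM against 73.1 and 96.9.

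Adhesion genes followed. Of 19 basement membrane and integrin genes, 16 were higher in both libraries and 14 at least 2-fold. Agrn (agrin, a basement membrane proteoglycan) stood at 418 and 548 CPM against 59.4 and 53, Itgb8 (an integrin chain that activates latent TGF-beta) at 108 and 206 against 0.80 and 2.46, and Lama5 (a laminin chain) at 164 and 140 against 10.1 and 11.5. Of 22 junction genes, 16 were higher in both but only 6 at least 2-fold. Dsg2 (a desmosomal cadherin) stood at 428 and 647 CPM against 84.8 and 72.7, while Pard3 (a polarity protein) was lower, 136 and 174 against 195 and 213.

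Among signalling genes, 10 of 21 Notch genes were higher in both libraries and 7 at least 2-fold. The ligand Jag1 stood at 169 and 281 CPM against 17.8 and 25.6, while the receptor Notch1 was lower in both, in MASH 2 at 48.3 against 94.3. Of 18 Hippo-YAP genes, 15 were higher and 8 at least 2-fold, with Ptpn14 (a YAP-binding phosphatase) at 89.3 and 174 CPM against 0.53 and 1.51. Of 16 growth factor receptor genes and ligands, 9 were higher and 8 at least 2-fold. Fgfr3 (an FGF receptor) stood at 554 and 919 CPM against 67.2 and 77.3, and Igf1r (the IGF1 receptor) at 94.0 and 196 against 3.03 and 3.12. Of 17 Wnt and progenitor genes 6 were higher in both, near the background share, and Lgr5 and Axin2, both pericentral Wnt targets, were lower, Axin2 at 4.70 and 3.45 CPM against 34.6 and 38.3.

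Of 36 paracrine genes, 22 were higher in both libraries and 16 at least 2-fold. The stellate cell mitogen Pdgfb stood at 75.2 and 121 CPM against 2.94 and 4.45, the monocyte chemokine Ccl2 at 174 and 123 against 13.7 and 13.4, and Ccn2 (connective tissue growth factor) at 98.7 and 218 against 4.81 and 12.8. Vegfa was not higher, 451 and 653 CPM against 602 and 694. Antigen presentation genes were higher in 14 of 20, with H2-K1 at 1024 and 1041 CPM against 535 and 513. Mucosal genes were higher in 8 of 18, led by Clu (clusterin) at 2659 and 2465 CPM against 278 and 243, and the mucins Muc5b and Muc20 had 0 UMIs in both libraries, and a count of 0 allows up to 3.

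Cell cycle genes summed to 103 and 179 CPM in hepatocyte-poor nuclei of MASH 1 and 2, against 101.0 and 72.6 CPM in hepatocyte-rule nuclei, and to 274 CPM in cluster 5. Of 16 cycling genes, 6 were higher in both libraries and 1 at least 2-fold, and Mki67 stood at 9.40 and 20.7 CPM against 13.9 and 7.10. Of 17 senescence and survival genes, 10 were higher and 7 at least 2-fold. Bcl2 (an inhibitor of apoptosis) stood at 164 and 172 CPM against 16.7 and 13.4, Ccnd1 (cyclin D1) at 179 and 281 against 54.4 and 44.6, and Cdkn2a had no UMI in either library. Of 24 lipid and stress genes, 7 were higher and 3 at least 2-fold, and of 12 genes of disease-associated hepatocytes that the study followed in these samples, and which are not independent of them, 6 and 3. In the latter list Themis went the other way, 14.1 and 14.7 CPM against 126 and 137.

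Markers of other cell types were not at 0. Stellate genes were higher than in hepatocyte-rule nuclei in 13 of 15, summing to 756 and 1037 CPM in MASH 1 and 2, led by Ank3, which many epithelia also express. Macrophage genes were higher in 11 of 16 and summed to 343 and 302 CPM, endothelial genes in 5 of 15, lymphocyte genes in 7 of 17, neutrophil and erythroid genes in 3 of 10 and mesothelial genes in 1 of 8. At least 2-fold higher in both libraries were 11 of the 15 stellate genes, against 14.2% of all genes. For the other lists these counts were macrophage 2, endothelial 1, lymphocyte 6, neutrophil and erythroid 1, and mesothelial 1. Hepatocyte genes were higher in 2 of 25 and still summed to 23576 and 11784 CPM, against 22918 and 19614 CPM in hepatocyte-rule nuclei. The 8 hepatocyte-rule genes, of which none was higher, were held down by the split itself. The part of free or carried-over RNA in these levels was not tested.

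The few chow nuclei were mixed. The 10 hepatocyte-poor nuclei of chow 1 had 5435 CPM of mesothelial genes, the 2 of chow 2 had 11063 CPM of stellate genes, and the 19 of chow 3 had 69502 CPM of hepatocyte genes beside 8702 CPM of Spp1. Mesothelial genes stood at 14.1 and 41.4 CPM in MASH. Nuclei with 3 or more rule genes numbered 7, 3 and 9 in chow, with ductal identity sums of 18064, 3523 and 13953 CPM, against 9438 and 12802 CPM in the 77 and 550 such nuclei of MASH. In chow 1 and chow 3 this level was above both MASH libraries and in chow 2 below them. Spp1 alone gave 7305, 97.9 and 8249 CPM of these sums in chow 1 to 3, and 3274 and 4267 CPM in MASH. The place of chow 3 above the MASH libraries rests on this gene, as the rest of its sum was below theirs.

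Clustering the 1563 nuclei gave 8 clusters, which split by library as well as by content. Cluster 2 held 677 nuclei, 76 from MASH 1, 594 from MASH 2 and 7 from chow 1, and 94.7% were hepatocyte-poor. Cluster 8 held 189, 17 from MASH 1 and 172 from MASH 2, with 93.7% hepatocyte-poor. Together they contained 812 of the 909 hepatocyte-poor MASH nuclei. Cluster 4 held 26 nuclei, all from chow and 21 of them from chow 3, and 69.2% were hepatocyte-poor, including 17 of the 19 such nuclei of chow 3. Its ductal identity sum, 19729 CPM, was above those of cluster 2 (18107 CPM) and cluster 8 (15068 CPM). Spp1 alone gave 11682 CPM of it, against 7124 CPM in cluster 2 and 4129 and 4337 CPM in cluster 8 of MASH 1 and 2. Without Spp1 the cluster 4 sum lay below those of clusters 2 and 8. The leading genes of cluster 4 included Spp1 and Rassf9 beside Mup genes and Alb, with 67840 CPM of hepatocyte genes. The other 5 clusters had ductal identity sums of 2363 to 5273 CPM. Clusters 1 and 6 held 66 and 57 nuclei, all from chow, with cluster 6 led by the acute-phase genes Saa1 and Saa2 in chow 3, and cluster 3 held 75 led by Igfbp5, Dcn and Hgf, 36% of them with high doublet scores. Cluster 5 held 284 nuclei, 137 and 146 from MASH 1 and 2, led by Nrg1, and cluster 7 held 189, 35 and 154, led by hepatocyte genes such as Glul and Slco1b2, 30.2% of them with high doublet scores.

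**Figure D3:**
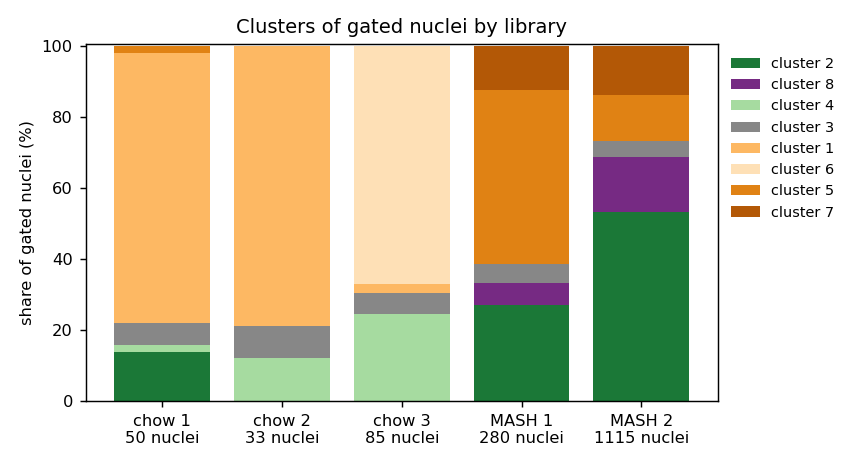
Share of each library's gated nuclei (%) in the 8 clusters. Cluster 2 took 53.3% of MASH 2 and 27.1% of MASH 1, cluster 5 took 48.9% of MASH 1 and 13.1% of MASH 2, and the chow libraries fell mostly into clusters of their own.

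Clusters 2 and 8, which held most hepatocyte-poor nuclei of MASH, were compared within each MASH library. Cd44 (the hyaluronan receptor) went from 39.5 to 678 CPM between cluster 2 and cluster 8 in MASH 1, and from 33.2 to 388 CPM in MASH 2. Ccl2 went from 39.5 to 647 CPM and from 17.9 to 260 CPM. Vcam1 (a leukocyte adhesion molecule) went from 88.8 to 493 CPM and from 84.2 to 347 CPM. Among the first were also Ltbp2 (a latent TGF-beta binding protein), from 0 to 308 CPM and from 12.8 to 172 CPM, and Rgs5, a stellate cell and pericyte gene, from 29.6 to 370 CPM and from 48.5 to 266 CPM. The sum of stellate genes was 690 CPM in cluster 2 and 986 in cluster 8 of MASH 1, and 820 and 995 in MASH 2, and its part in these differences was not tested. Of 4630 genes compared, 18 were at least 2-fold higher in cluster 8 in both libraries and 4 at least 2-fold lower, with 50 CPM added to each level. The clustering read these same genes, so this is a description with no test, and genes in it outside the lists were chosen after their values were seen.

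Other genes on the cluster 8 side were Icam1 (the integrin ligand ICAM1), Cxcl16 and Csf1 (a chemokine and the macrophage growth factor), Itga2 and Itgav (integrin chains), and Malt1 and Birc2 (signal proteins upstream of NF-kappa B). Relb, an NF-kappa B subunit, went from 69.0 to 185 CPM in MASH 1 and from 40.8 to 182 CPM in MASH 2. Birc2 went from 335 to 647 CPM and from 615 to 1545 CPM. The cluster 8 levels of MASH 1 rest on 32450 UMIs in 17 nuclei, so that Icam1 there is 3 UMIs (92.5 CPM, Poisson 95% interval 19.1 to 270.2).

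The 4 genes past 2-fold toward cluster 2 were Adamts16, AI838599, Lamc3 and Osgin1, each at 0 UMIs in cluster 8 of MASH 1. Adamts16 (a metalloprotease) was at 112 CPM in cluster 2 of MASH 2 and at 13.5 CPM in its cluster 8. The genes given next did not reach 2-fold in both libraries once 50 CPM was added to each level, although Fgfr3 did in plain CPM. Fgfr3 went from 957 to 462 CPM in MASH 1 and from 1209 to 496 CPM in MASH 2 between cluster 2 and cluster 8. Vegfa was at 602 and 308 CPM in MASH 1 and at 806 and 384 CPM in MASH 2, Gas6 (a ligand of TAM receptors) at 750 and 370 and at 1102 and 570, and Spp1 at 7516 and 4129 and at 7071 and 4337. In both clusters the ductal identity sum stayed high, 16364 and 12912 CPM in MASH 1 and 18335 and 15304 CPM in MASH 2. The sum of paracrine genes went the other way, from 1549 to 3390 CPM and from 2086 to 3133 CPM, with 14 of 36 genes higher in cluster 8 in both libraries, against 15.8% of all genes. Basement membrane and integrin genes were higher in 11 of 19, and growth factor receptor genes in 1 of 16.

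**Figure D4:**
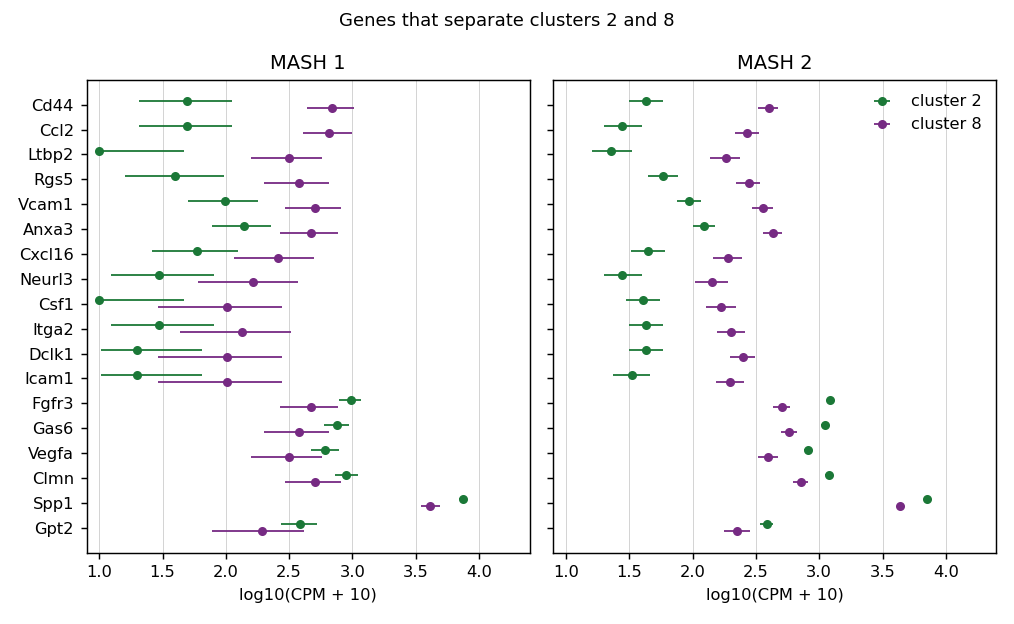
Levels in clusters 2 and 8 as log10(CPM + 10) in MASH 1 (left) and MASH 2 (right), for the 12 genes with the largest smaller fold toward cluster 8 and 6 genes lower in it. Bars are 95% Poisson intervals, wide for cluster 8 of MASH 1 with its 17 nuclei. Cd44 and Ccl2 lie to the right in cluster 8 and Fgfr3, Gas6, Vegfa and Spp1 to the left, in both libraries.

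The MASH libraries shared the identity genes but differed in many others. With 1 library on each side there is no test, and values carry Poisson intervals only. Among gated nuclei 88 of 9278 genes were at least 2-fold higher in MASH 1 and 547 in MASH 2, together 6.84%. In hepatocyte-poor nuclei the counts were 182 and 462 of 5227 genes, 12.3%, and in hepatocyte-rule nuclei 121 and 141 of 11927, 2.2%. The depths behind these shares differ, since the hepatocyte-poor nuclei of MASH 1 hold 212845 UMIs. Make-up differs too, as 41.4% of the gated nuclei of MASH 1 and 71.1% of those of MASH 2 were hepatocyte-poor. Its part in the counts was not tested. In hepatocyte-rich gated nuclei the counts were 62 and 157 of 7555 genes, 2.9%, and in cluster 2 alone 142 and 467 of 3381, 18.0%.

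Over all gated nuclei the largest ratio toward MASH 1 was that of Rsad2, which rests on few nuclei. Rsad2 (viperin, an antiviral enzyme) stood at 122 CPM (103 to 145) in MASH 1 and 6.94 CPM (4.3 to 10.6) in MASH 2, while hepatocyte-rule nuclei had 30.4 and 32.7 CPM. Cmpk2 (encoded beside Rsad2) stood at 42.4 against 5.29 CPM, Cxcl10 (an interferon-induced chemokine) at 65.4 against 14.9, and Oasl1 (an oligoadenylate synthetase-like protein) at 30.4 against 8.93. Of the 284 nuclei of cluster 5, which held 135 Rsad2 UMIs over all libraries, 3.87% had any, so the Poisson intervals of Rsad2 understate its spread between nuclei. On the MASH 2 side were Adam33 (a metalloprotease), 31.3 against 195 CPM, Slit2 (a guidance ligand), 9.21 against 47.9, Timp3 (a metalloprotease inhibitor), 11.1 against 58.5, and Socs2 (a cytokine signal inhibitor), 42.4 against 219. Plaat3 (a phospholipase) had 0 UMIs in MASH 1 and 64 in MASH 2, a level at least 7.66-fold higher.

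Within hepatocyte-poor nuclei the MASH 1 side was led by hepatocyte genes. Cyp2f2 (a periportal cytochrome P450) stood at 226 CPM (166 to 299) in MASH 1 and 38.0 CPM (27.6 to 51.0) in MASH 2, and Fbp1 (a gluconeogenic enzyme) at 160 against 39.7. Cyp2f2 also differed in hepatocyte-rule nuclei, 203 against 71.5 CPM, as did Lars2 (mitochondrial leucyl-tRNA synthetase), 1393 against 488 CPM beside 2265 against 569 CPM in the hepatocyte-poor nuclei. The hepatocyte list summed to 23576 CPM in MASH 1 and 11784 in MASH 2, and its part in these differences was not tested. Nrg1 (neuregulin 1, an ERBB ligand) stood at 428 CPM (344 to 525) against 111 CPM (92.2 to 131), beside 198 and 132 CPM in hepatocyte-rule nuclei. Within cluster 2 alone Cyp2f2, Fbp1 and Lars2 stayed among the leading genes toward MASH 1, and Nrg1 did not.

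On the MASH 2 side of hepatocyte-poor nuclei some genes were near absent from hepatocyte-rule nuclei and others were not. Adam33 stood at 132 CPM (87.4 to 190) in MASH 1 and 424 CPM (387 to 463) in MASH 2, against 1.51 and 2.93 CPM in hepatocyte-rule nuclei. Socs2 stood at 150 against 456 CPM, with 12.7 and 23.7 CPM in hepatocyte-rule nuclei, Sema6a (a transmembrane semaphorin) at 84.6 against 249, Rbms3 (an RNA-binding protein) at 75.2 against 250.3, and Cdh6 (a cadherin of tubular and ductal epithelia) at 51.7 against 147. Fyttd1 (an mRNA export adaptor) stood at 56.4 against 159 CPM, beside 101.2 and 114 CPM in hepatocyte-rule nuclei, and Ccdc148 at 47.0 against 126 CPM, beside 13.4 and 13.6. These genes were detected in both libraries and higher in MASH 2 over the hepatocyte-poor nuclei. Those nuclei differed in make-up, as cluster 2 held 61.2% of them in MASH 1 and 71.1% in MASH 2. Within cluster 2 none of these genes was among the leading ones toward MASH 2, which does not show that their levels were alike. That ranking took only genes with at least 10 UMIs, or with no UMI, in the lower library. Over all hepatocyte-poor nuclei of MASH 1, Ccdc148 had 10 UMIs, Cdh6 11 and Fyttd1 12. Cluster 2 of MASH 1 holds 101379 UMIs, against 212845 in those nuclei, so such genes could hardly enter the ranking. Zmiz1 led there, at 98.6 against 311 CPM, beside 246 and 273 CPM in hepatocyte-rule nuclei. How far make-up carries these differences was not tested.

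**Figure D5:**
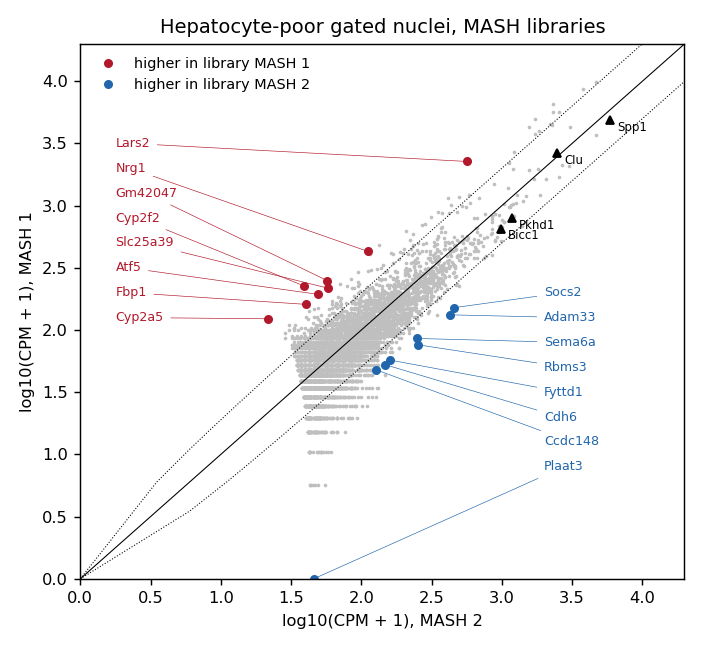
Each gene's level in hepatocyte-poor gated nuclei of MASH 2 (x axis) and MASH 1 (y axis) as log10(CPM + 1), with the named genes of each side coloured. Spp1 lies near the diagonal at 4867 and 5881 CPM, Cyp2f2 and Nrg1 above it, and Adam33 and Socs2 below it.

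The diet comparison over all gated nuclei used the summed UMIs of each library in edgeR's quasi-likelihood test with Benjamini-Hochberg adjustment. Of 8030 genes tested, 557 (6.94%) had an adjusted p under 0.05, 273 higher in MASH (3.4%) and 284 lower (3.54%), and the median log2 fold change was 0.01. At an unadjusted p under 0.05 there were 1909 (23.8%). The count of calls was 19 without MASH 2, 62 without MASH 1, 272 without chow 2 and 1058 without chow 1. Levels of 38.8% of the genes did not overlap between the groups. The gated nuclei of chow were 81.5% hepatocyte-rich and those of MASH 34.8%, so this contrast compares nuclei of different make-up, and calls in it cannot be told apart from that difference.

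The rises were led by genes with no UMI in chow. Grk3 (a G protein-coupled receptor kinase) had 0 UMIs in all 3 chow libraries and 83.8 and 73.7 CPM in MASH 1 and 2, at least 24.0-fold higher when the chow group is set at 3 UMIs. Cd24a had 0 in chow and 23 and 67.4 CPM in MASH, at least 17.5-fold higher (adjusted p = 0.0205 in edgeR). Il17rb (an IL-17 receptor chain) reached 26.7 and 31.4 CPM, at least 9.49-fold higher, and Ephb2 (an ephrin receptor) 23 and 25.8 CPM, at least 7.88-fold higher. Each of the 4 was at 0 in chow and above it in both MASH libraries. Grk3 and Ephb2 were also higher in hepatocyte-rule nuclei of MASH, Grk3 at 39.0 and 46.2 CPM against 1.0 to 2.58 in chow, whereas Cd24a stayed at 0.89 and 2.84 CPM there. Cyp2a22 (a cytochrome P450), 3rd among these rises, had 0 UMIs in chow and 35.9 and 32.7 CPM in MASH. Hepatocyte-rich nuclei held 37 of its 39 UMIs in MASH 1 and 91 of 99 in MASH 2. For Ephb2 they held 21 of 25 and 68 of 78. Hepatocyte-poor nuclei held 21 of 25 and 169 of 204 for Cd24a, and Grk3 and Il17rb were in both kinds.

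The falls were led by hepatocyte products. Mup1 (a major urinary protein) stood at 54.1, 94.0 and 176 CPM in chow and had 0 UMIs in MASH, at least 174-fold lower. Serpina1e (an alpha-1-antitrypsin copy) went from 1189, 3244 and 3190 CPM to 46.0 and 23.5 CPM, a log2 fold change of -6.43 ± 0.77 (SE), with edgeR adjusted p = 0.00318. Mup and Serpina1 genes are families of near-identical copies, so their counts are uncertain for a single gene. In hepatocyte-rule nuclei Serpina1e also differed, 934 to 3166 CPM in chow against 28.0 and 11.8 CPM in MASH. The rule that named these genes asked for calls without overlap between the groups, a condition met by 6.8% of the genes tested, so that they do not overlap is fixed by the choice.

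By list, the ductal identity genes had 6 higher and 0 lower among the 16 of 28 that passed the filter on low counts, against 3.4% higher and 3.54% lower over all genes tested, the background for each list here. Cd24a and Cldn7 were near 0 in chow and passed through MASH, so a fall could not have been called for them, and the same holds for other low genes. Sorbs2 stood at 894, 860 and 713 CPM in chow and at 2164 and 3122 CPM in MASH, log2 fold change 1.51 ± 0.39 (SE), edgeR adjusted p = 0.0433. Tm4sf4, Cdh1, Spint2, Cldn7 and Cd24a were the others. Basement membrane and integrin genes had 5 higher and 0 lower of 11, with Agrn at 57.7, 20.1 and 50.3 CPM in chow and 147 and 284 in MASH (edgeR adjusted p = 0.0232). Paracrine genes had 5 higher (Pdgfa, Pdgfb, Pdgfc, Ccn1, Ccl2) and 2 lower (Cxcl1, Igf1) of 15, antigen presentation 3 and 0 of 15 (Cd74, H2-Ab1, H2-Eb1), cilium 2 and 0 of 13 (Pkd2, Ift88), and junction 2 and 0 of 19 (Dsp, Dsg2). Hippo-YAP had 1 and 0 of 15 (Ajuba), Wnt and progenitor 1 and 0 of 9 (Sox4), growth factor receptors 1 higher (Nrg1) and 1 lower (Egfr) of 9, senescence 2 and 0 of 11 (Bcl2, Ets1), and the disease-associated hepatocyte genes, chosen by the study on these samples, 4 and 0 of 9. Notch (8 tested), transport (8), mucosal (5) and cycling genes (1) had no call. Hepatocyte genes had 0 higher and 8 lower of 25, and lipid and stress genes 1 higher (Cd36) and 3 lower (Sqle, Idi1, Fabp5) of 19.

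Of the lists of other cells, 1 stellate gene (Ank3) and 1 macrophage gene (Cd5l) were higher and 1 mesothelial gene (Msln) was lower. Themis, the 1 gene of the lymphocyte list tested, was higher, but it is also in the disease-associated hepatocyte list. It was among the leading genes of cluster 7, at 121.6 CPM against 19.6 CPM in the other gated nuclei. As given above, it was lower in hepatocyte-poor than in hepatocyte-rule nuclei of MASH.

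Within hepatocyte-poor nuclei no gene passed the test for a rise in edgeR with the filter and all 4 libraries. The fit used chow 1 and 3 with MASH 1 and 2, because chow 2 had 2 nuclei. Of 2347 genes tested, 0 were higher and 54 (2.3%) lower in edgeR at an adjusted p under 0.05, while 179 were higher and 245 lower at an unadjusted p under 0.05 (18.1%), and DESeq2 called 13 higher and 158 lower. With no filter on low counts 40 were higher and 99 lower. Without chow 3 there were 36 higher and 73 lower, without chow 1 15 and 61, without MASH 1 0 and 12, and without MASH 2 2 and 12. No ductal identity gene was called in either direction. Sorbs2, for example, had a log2 fold change of 1.12 (edgeR adjusted p = 0.422) and Tm4sf4 of 0.16 (edgeR adjusted p = 0.917). A p that misses the threshold does not show that these levels were alike.

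The 54 falls were led by genes of other cells. Igfbp5 (an IGF-binding protein) stood at 14456 and 784 CPM in chow 1 and 3 and at 0 and 10.4 CPM in MASH, and Msln (mesothelin, a mesothelial surface protein) at 504 and 157 against 0 and 1.73 CPM. Slpi, Gas1, Sulf1, Igfbp6 and Nbl1 followed the same split, and Mup7 and Mup11 were the hepatocyte genes among the first 10. These falls moved with the mesothelial sum, 5435 and 862 CPM in chow 1 and 3 against 14.1 and 41.4 CPM in MASH, and the part of those nuclei in them was not tested further. Aqp1 (the water channel) was the transport gene called lower, with a log2 fold change of -4.37 and an edgeR adjusted p of 0.00464. Transport genes summed to 2073 CPM (37 UMIs) in the hepatocyte-poor nuclei of chow 1 and to 1450 CPM in those of chow 3. In the cluster 2 nuclei of chow 1 the sum was 824 CPM (6 UMIs). The part of nuclei of other cells in the Aqp1 fall was not tested.

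In hepatocyte-rich gated nuclei the same test called 136 higher (1.77%) and 162 lower (2.11%) of 7683 genes, 3.88% in all. Nrg1 was among the rises there, with a log2 fold change of 4.89 ± 0.59 (SE) and an edgeR adjusted p of 0.00403. Over all gated nuclei Nrg1 stood at 0, 6.72 and 13.5 CPM in chow and at 348 and 220 CPM in MASH, above chow in both libraries.

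A further fit asked whether the diet difference of a gene was unlike that in hepatocyte-rule nuclei of the same libraries, with the library as a block. Of 14322 genes, 238 (1.66%) had an edgeR adjusted p under 0.05, 137 (0.957%) toward lower and the others (0.705%) toward higher levels in MASH gated nuclei. Without MASH 2 the count was 42, and without chow 1, 2 or 3 it was 146, 154 and 130. Kcnip4 (a potassium channel-interacting protein) was at 0, 0 and 1.93 CPM in gated nuclei of chow and at 13.8 and 34.4 CPM in those of MASH, and at no more than 0.29 CPM in hepatocyte-rule nuclei of any library. Il17rb had 0 UMIs in gated nuclei of chow and 7.68 to 16.4 CPM in hepatocyte-rule nuclei of chow, beside 22.4 and 20.4 CPM in those of MASH. The hepatocyte-poor share of the gate moved with these differences, 18.5% in chow and 65.2% in MASH.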

How the data were processed

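Nuclei from snap-frozen livers were profiled by 10x 3' RNA-seq in 5 libraries. The deposited files hold UMI counts per gene and barcode for 32285 genes. The authors made them with Cell Ranger 8.0.1 on the mm10 reference (GRCm38), leaving intronic reads out. No value column was left unmapped to a sample.

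Nuclei with 300 genes and under 10% mitochondrial UMIs were kept. The members and all 26 gene lists were chosen with earlier results of these data known. Counts were summed by library and tested with edgeR 4.0.16 (quasi-likelihood, TMM, filterByExpr, Benjamini-Hochberg) in R 4.3.3, with DESeq2 1.42.0 as an alternative. A fit needed 10 nuclei per library. Shares were compared by exact permutation tests (Python 3.11.15) with exact binomial intervals. Folds against 0 UMIs used 3 UMIs over the group, and fitted folds of such genes depend on the prior count. Doublets were scored with Scrublet (scanpy 1.11.5), the highest scores marked at 0.8% per 1000 nuclei and left in, since its automatic threshold marked 4 nuclei in all. Clusters used Leiden (resolution 0.5, 15 components, 2000 genes). Scripts were tested on simulated data.

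Named genes were the 10 largest called rises and falls without overlap, 8 per direction between the MASH libraries with 50 UMIs or more, 20 identity genes, 8 per direction for the difference of differences, and up to 4 per list. Alternatives were another normalisation and test, no filter, Storey's q, 500 genes, 5% mitochondrial UMIs, doublets out, a replicate block and each library left out. Those for hepatocyte-poor nuclei were chosen after seeing the data. Some items are not reported here.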

Additional observations from a re-analysis of the deposited data

Results flagged for a closer look

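The diet difference in gated nuclei was unlike that in hepatocyte-rule nuclei for 238 genes by edgeR's interaction test with Benjamini-Hochberg adjustment. The values below are log2 differences of differences, and most rest on a group with 0 UMIs, so their size depends on the prior count. Toward MASH gated nuclei the largest were Gm14226 (15.10), Col9a3 (10.90), Slc34a2 (10.55), Il17rb (10.43), Rims2 (10.25), Tmem191c (10.03), Vmn1r90 (6.87) and Kcnip4 (6.47). All 8 were at 1 UMI or fewer in the gated nuclei of each chow library. In MASH 1 and 2 Gm14226 was at 10.1 and 13.9 CPM and Rims2, a synaptic vesicle protein, at 7.37 and 25.1 CPM.

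In the other direction the largest were Pkhd1l1 (-11.43), Il18r1 (-7.46), Msln (-7.27), Tmem119 (-7.18), Igfbp5 (-7.05), Fmod (-6.80), Flrt2 (-6.60) and Sulf1 (-6.59). In gated nuclei these 8 had UMIs in chow 1 and chow 3 and 0 in chow 2, so the chow and MASH libraries overlapped. Igfbp5 was at 933 CPM in chow 1, 184 in chow 3, and 0 and 4.63 CPM in MASH. These levels moved with the mesothelial sum of the hepatocyte-poor nuclei, which was 5435 CPM in chow 1. Without MASH 2 the count of genes was 42.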

How the results depend on the processing

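The share of gated nuclei was higher in MASH under every alternative run, and leaving out 1 library gave differences of 3.10 to 9.77 percentage points. The diet count of 557 was 893 with Storey's q-value, 1394 with no filter on low counts and 54 in hepatocyte-poor nuclei alone, and 19 to 1058 with 1 library left out (1058 without chow 1, 272 without chow 2, 62 without MASH 1, 19 without MASH 2). DESeq2 called 520, of which 34.2% were higher in MASH, against 49.0% in edgeR, and the split was 59.7% without MASH 1, 68.4% without MASH 2 and 31.2% without chow 2. A replicate block gave 674 genes (315 higher, 359 lower of 9271). Deviations of same-numbered libraries from their group means had r = 0.01 and -0.07. With 2 MASH libraries these deviations mirror each other, so the values cannot decide whether the numbers pair libraries. The count of 238 genes for the difference of differences was 57 with DESeq2 (12772 adjusted p not given), 391 with hepatocyte-poor nuclei alone, where the median of all genes moved to 1.75, and 42 to 313 with 1 library left out (146 without chow 1, 154 without chow 2, 130 without chow 3, 42 without MASH 2). The 54 genes of the hepatocyte-poor fit were 171 with DESeq2, 139 with no filter and 12 to 109 with 1 library left out (12 without MASH 1, 14 without MASH 2, 109 without chow 3). In these leave-outs the lone MASH library is assumed to vary like the chow libraries. Between the MASH libraries the count of 635 stayed within 1.5 times in each alternative run, but fewer genes could be compared in some, and the share of genes went from 6.84% to 16.3% (458 of 2817) when thinned and 10.5% (582 of 5535) with 3 or more rule genes. For single named genes 216 diet results kept direction and call and 23 lost the call, 116 and 58 for the difference of differences, and 46 and 4 in hepatocyte-poor nuclei. With 3 or more rule genes chow had 7, 3 and 9 nuclei, and the diet fit was not run. The causes of these changes were not tested beyond the smaller numbers of libraries and nuclei.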

Other observations

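Some genes of the transport and paracrine lists, already part of the counts above but not named there, were seen in the hepatocyte-poor MASH nuclei. The glucose cotransporter Slc5a1 stood at 37.6 and 90.6 CPM in MASH 1 and 2, against 1.16 and 2.18 CPM in hepatocyte-rule nuclei. The cotransporter Slc12a2, which loads chloride for secretion, stood at 51.7 and 84.6 against 7.66 and 9.94, and the calcium-activated chloride channel Ano1 at 23.5 and 45.8 against 0.27 and 1.61. Tgfb2, a TGF-beta ligand, stood at 51.7 and 91.5 CPM against 2.76 and 4.64, and Wnt4 at 32.9 and 128 against 4.72 and 4.16. These genes were chosen after their values were seen and carry no test.

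In gated nuclei of chow 3 the acute-phase genes Saa1 and Saa2 led cluster 6, which held most of the gated nuclei of that library, and Cxcl1 stood at 1916 CPM there, against 908 and 228 CPM in chow 1 and 2. The cause was not tested.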
